A study of Homo sapiens with 8 samples.

Results

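The peaks described here lie at 9 genes that are widely used as readouts of the transcriptional co-activator YAP: CCN1, CCN2, ANKRD1, AMOTL2, FJX1, NUAK2, F3, AXL and IGFBP3. A peak was included when it overlapped the RefSeq gene body or the 50 kb on either side of it. This gave 86 of the 129536 peaks in the deposited count table, with 6 to 14 peaks at each locus. A peak that touched the 1 kb on either side of a gene's own start or 3′ end was called a gene-end peak, and there were 15 of these. Of the others, 14 touched the end of another gene, and 57, called distal here, lay beyond 1 kb of any gene end. The genes were chosen as YAP targets, but with earlier results of these data known. No binding of YAP or TEAD was measured in the libraries used here.

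The assay was Omni-ATAC-seq, a form of ATAC-seq for whole nuclei that uses the Tn5 transposase to tag accessible DNA. The cells were HEK293, a human embryonic kidney line, which the genotype field gives as eGFP-YAP. The library titles name only HEK293, and the sources used here do not say whether the tagged line is 1 clone. All cells were serum-starved for 1 h according to the series design. The vehicle group comprised 4 libraries from vehicle-treated cells, and the sorbitol group comprised 4 libraries from cells that spent 1 h in medium with 0.2 M sorbitol, a sugar alcohol that makes the medium hyperosmotic. The vehicle libraries are labelled 0 h and the sorbitol libraries 1 h, so treatment and labelled time cannot be told apart. Nothing in the labels says whether the 4 libraries of a group came from separate cultures, so p-values measure the spread between these libraries, which may be technical.

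Library totals over all peaks were 11522266 to 14355727 counts after sorbitol and 14757015 to 19831471 counts in vehicle, so a given peak was counted with less precision after sorbitol. Treatments separated on principal component 1 (46.5% of variance), while vehicle 4 and sorbitol 4 lay farthest apart on the second, which held 11.7%. Of the kidney-lineage genes reported, LHX1 had a gene-end peak and PAX2 had none. CDX2, VIL1, PTPRC and SPI1, which mark gut and blood cells, also had one, while CDH17, CD3E, ALB and APOA2 had none. An open gene end is not expression, so these peaks neither test the cell label nor show other cells.

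YAP is the effector of the Hippo pathway. When the LATS kinases phosphorylate it, it is held in the cytoplasm; otherwise it enters the nucleus and binds TEAD factors, which recognise the motif GGAATG. Much of YAP-TEAD binding in human cells is at enhancers away from gene starts, often beside AP-1 motifs, and hyperosmotic stress is known to change where YAP sits in the cell. CCN1 and CCN2 encode secreted matricellular proteins. ANKRD1 encodes a nuclear ankyrin repeat cofactor, and AMOTL2 encodes an angiomotin that holds YAP back. NUAK2 encodes a kinase of the AMPK family, and FJX1 a relative of Drosophila four-jointed. F3 encodes tissue factor, which starts blood clotting, AXL a receptor tyrosine kinase, and IGFBP3 a secreted carrier of insulin-like growth factors.

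The promoters show which genes carry the TEAD motif at their start, so the 250 bases before the annotated start are printed for 5 of them, from RefSeq on GRCh38.p14, 5′ to 3′ on the gene's strand. Capitals mark TEAD (GGAATG) or AP-1 (TGANTCA) matches on either strand, so a TEAD match can also read CATTCC. CCN2 lies at chr6:131951373-131951622, ANKRD1 at chr10:90921088-90921337, NUAK2 at chr1:205321746-205321995 and F3 at chr1:94541760-94542009, all on the minus strand. AXL, at its outer start, lies at chr19:41218973-41219222 on the plus strand.
CCN2: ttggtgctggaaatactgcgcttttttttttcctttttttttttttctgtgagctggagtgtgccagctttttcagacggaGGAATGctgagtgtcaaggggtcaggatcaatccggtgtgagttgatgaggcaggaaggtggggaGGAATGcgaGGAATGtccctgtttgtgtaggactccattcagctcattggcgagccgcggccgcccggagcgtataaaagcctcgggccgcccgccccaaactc
ANKRD1: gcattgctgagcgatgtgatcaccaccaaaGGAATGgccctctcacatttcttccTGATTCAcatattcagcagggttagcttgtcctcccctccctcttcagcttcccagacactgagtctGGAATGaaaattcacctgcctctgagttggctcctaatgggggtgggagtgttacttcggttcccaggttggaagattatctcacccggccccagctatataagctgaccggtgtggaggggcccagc
NUAK2: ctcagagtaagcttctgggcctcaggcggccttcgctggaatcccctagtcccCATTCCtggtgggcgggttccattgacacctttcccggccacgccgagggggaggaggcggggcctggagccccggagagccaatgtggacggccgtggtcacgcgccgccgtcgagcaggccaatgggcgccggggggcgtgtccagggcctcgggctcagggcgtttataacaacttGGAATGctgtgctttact
F3: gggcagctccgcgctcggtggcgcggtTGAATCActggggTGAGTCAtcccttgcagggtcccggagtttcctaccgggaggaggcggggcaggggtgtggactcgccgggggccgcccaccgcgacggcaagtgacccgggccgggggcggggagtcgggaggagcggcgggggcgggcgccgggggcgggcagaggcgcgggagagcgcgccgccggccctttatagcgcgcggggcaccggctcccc
AXL: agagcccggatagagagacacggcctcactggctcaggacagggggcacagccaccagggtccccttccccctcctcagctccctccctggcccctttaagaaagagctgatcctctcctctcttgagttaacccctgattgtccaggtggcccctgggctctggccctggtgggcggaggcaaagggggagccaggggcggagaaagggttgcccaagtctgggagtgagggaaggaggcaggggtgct

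The CCN2 window held 3 TEAD matches, whose first bases lay 169, 104 and 95 bases before the start. Of 35116 RefSeq promoter windows of the same 250 bases, 11.9% held at least 1 TEAD match, 0.940% held at least 2 and 0.0826% held at least 3. ANKRD1 held 2 TEAD matches, 220 and 128 bases before its start, with an AP-1 match between them at 195. NUAK2 held 2 TEAD matches, at 197 and 18 bases. F3 held no TEAD match but 2 AP-1 matches, at 223 and 210 bases. At least 1 AP-1 match was present in 6.57% of all windows and at least 2 in 0.402%. AMOTL2 has 2 annotated starts, and only the inner window held a TEAD match, shown here within 30 bases of the minus strand at chr3:134374499-134374528.
AMOTL2: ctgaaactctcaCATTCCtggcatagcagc
The inner of 2 AXL starts held 1 TEAD match, 212 bases upstream, and the outer one, printed above, held none. FJX1, IGFBP3 and the outer AMOTL2 window held neither motif. In all, 10 windows were matched for 8 of the 9 genes, and CCN1 is named only. All 12 matches lay inside an ATAC peak of the table. A match describes the letters in these windows and says nothing of binding, and the letters of the flanking peaks were not analysed here.

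After sorbitol, 12 of the 86 peaks rose and 12 fell at an adjusted p under 0.05 (edgeR quasi-likelihood test, adjusted over all tested peaks), while 62 were not called. All 86 had passed the filter on low counts. In bulk samples, a site opening more in every cell and a site open in more cells cannot be told apart. Across all 129487 tested peaks 29.1% were called: 16.0% rose and 13.1% fell, against 14.0% in each direction at these loci. The median log2 fold change (sorbitol over vehicle) was -0.01 over the 86 peaks and 0.01 over all peaks. At least 2-fold changes were called for 5 peaks that rose and 1 that fell, where 5.27% and 0.881% of all peaks did so. All 4 sorbitol libraries lay above all 4 vehicle libraries at 9 of the 86 peaks, and below them at 13, compared with 13.7% and 12.6% of all peaks.

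The calls were unevenly spread over the loci. At AXL 7 of 11 peaks fell (63.6%) and none rose. AXL lies on chromosome 19, where 49.0% of tested peaks fell and 3.41% rose. At the other 8 loci together, 12 of 75 peaks rose and 5 fell (16.0% and 6.67%). Of all tested peaks 16.0% rose and 13.1% fell, so the share that rose at these 8 loci was that of all peaks. NUAK2 had 3 of 14 higher, FJX1 had 3 higher and 2 lower of 11, CCN1 had 2 higher of 9, AMOTL2 had 2 higher of 8, CCN2 had 1 higher of 11 and F3 had 1 higher of 9. ANKRD1 had 1 lower of 6 and IGFBP3 had 2 lower of 7. Median log2 fold changes ran from -0.66 at AXL to 0.21 at FJX1. Differences between loci were not tested.

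**Figure D1:**
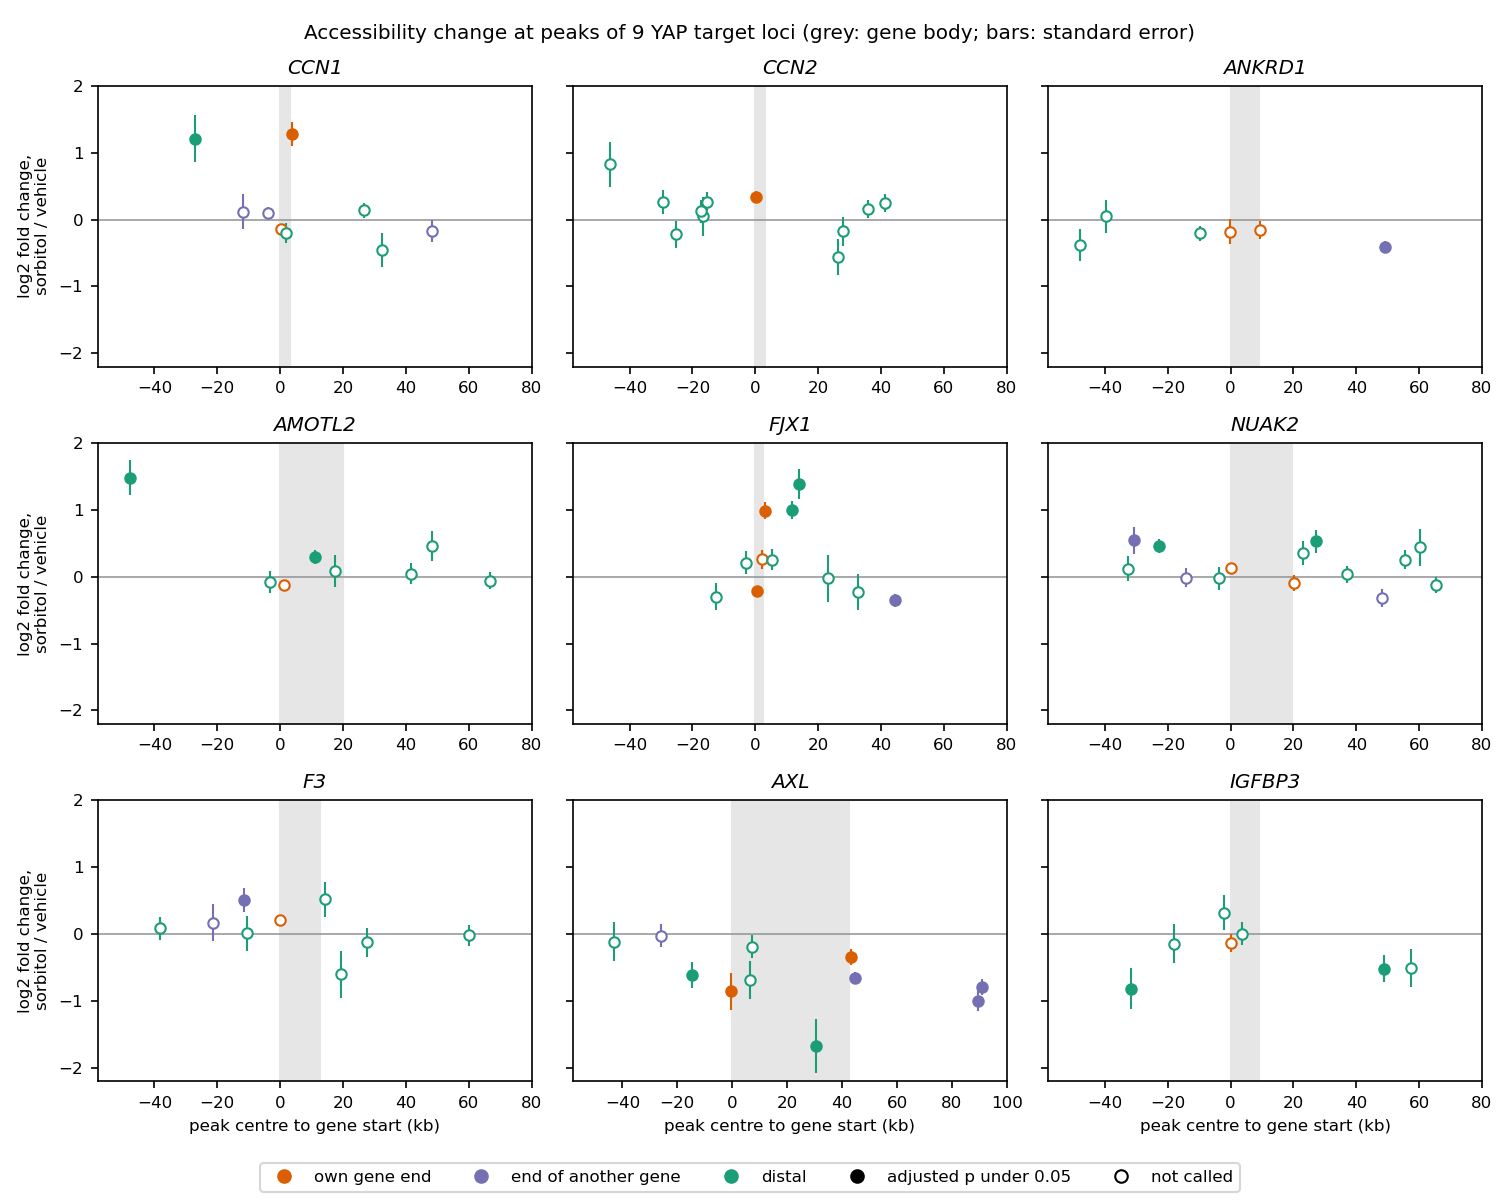
Each panel is 1 locus, with the distance of each peak's centre from the gene start in kb on the horizontal axis and its log2 fold change, sorbitol over vehicle, on the vertical axis; points are peaks with bars of 1 SE, filled where called and coloured by class, and grey marks the gene body. All 11 AXL peaks lie below 0, whereas the 3 FJX1 peaks that rose sit 3.21 to 14.0 kb past the start.

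How many of these calls point up depended on scaling. With library totals alone, 17 peaks at the 9 loci rose and 8 fell, and 26162 rose against 12650 that fell among all peaks. With factors computed from gene-end peaks only, which shifted the overall median by 0.17 on the log2 scale, 26 rose and 5 fell, against 34033 and 8671 of all peaks. Factors from unplaced and unlocalized contigs left 6 higher and 5 lower, against 8819 and 5078 of all peaks. Under all 6 scalings, 10 of the 24 calls were kept, 6 higher and 4 lower. Under every alternative run that tested them, 9 were kept: the peaks at the CCN1 3′ end, 3 at FJX1 and 1 upstream of AMOTL2 rose, and 4 at AXL fell. The AMOTL2 peak, the FJX1 peak centred 14.0 kb past its start and the AXL peak 30.7 kb past its start had mean counts under 50. The run that required a mean count of at least 50 therefore did not test them. Leaving out vehicle 2 reduced the calls at the 9 loci from 24 to 15.

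Gene starts came first. The start is the outer end of the RefSeq gene here. The peak at the inner AXL start, which was not called, therefore counts among the distal peaks. Each of the 9 genes had 1 peak at its start, of which 1 rose, at CCN2, and 2 fell, at FJX1 and AXL. Among 11561 peaks at protein-coding gene starts, 6.31% rose and 42.9% fell, with a median log2 fold change of -0.21, compared with -0.13 for these 9. Of the 15 gene-end peaks, 3 rose and 3 fell in the main run, and this split depended on the processing. With library totals alone 5 rose and 1 fell, as with a loess offset that depends on peak strength. With a mean count of at least 50, 14 were tested, of which 5 rose and none fell. With gene-end factors, 6 rose and none fell. Gene-end factors are computed from gene-end peaks, so they move such peaks as a group toward no change. The shares of 6.31% and 42.9% hold for the main scaling only and are no comparison for these counts.

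The CCN2 start, which covers the promoter with 3 TEAD matches, became more accessible. Its peak at chr6:131950393-131951653 measured 33.4, 36.3, 38.7 and 36.2 normalised CPM (counts scaled to library size) in vehicle libraries 1 to 4. It measured 41.8, 44.9, 44.9 and 51.5 CPM in sorbitol libraries 1 to 4. Every sorbitol library was above every vehicle library. The means were 36.1 ± 2.18 and 45.8 ± 4.10 CPM (SD, n = 4 each), a log2 fold change of 0.34 (SE 0.08, edgeR adjusted p = 0.00149). The call was lost only with factors from peaks on unplaced and unlocalized contigs (0.30, SE 0.23, adjusted p = 0.451). There the estimate changed little and the SE was larger. Gene-end factors gave 0.51 (adjusted p = 1.48e-06). No other CCN2 peak was called. The largest value among these was 0.83 (SE 0.34, edgeR adjusted p = 0.0578) for a weak peak of 200 bp centred 46.3 kb upstream, which passed when vehicle 4 was left out (1.04, adjusted p = 0.0265).

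The start of CCN1, the paralogue of CCN2, was not called. It measured 40.3, 39.1, 42.8 and 41.4 CPM in vehicle and 37.1, 35.9, 33.9 and 41.2 CPM after sorbitol. The ranges overlapped, and the log2 fold change was -0.14 (SE 0.08, edgeR adjusted p = 0.206). CCN1 and CCN2 started from like levels, 40.9 ± 1.57 and 36.1 ± 2.18 CPM in vehicle, and their changes were not tested against each other.

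ANKRD1, with 2 TEAD matches and an AP-1 match, had a weak start peak that was not called. It held 4.42, 4.64, 3.71 and 4.24 CPM in vehicle and 3.83, 3.19, 4.52 and 3.50 CPM after sorbitol, a log2 fold change of -0.18 (SE 0.18, edgeR adjusted p = 0.501). The NUAK2 start, with 2 TEAD matches, held 38.1, 37.0, 32.8 and 34.8 CPM in vehicle and 37.5, 37.5, 39.5 and 41.4 CPM after sorbitol. It was not called (0.13, SE 0.08, edgeR adjusted p = 0.249), but it passed as higher with library totals (0.21, adjusted p = 0.0300). Of the 3 starts with 2 or more TEAD matches, only CCN2 was called, and the starts were not tested against each other.

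The F3 start, with its 2 AP-1 matches, lay close to the threshold. It held 36.3, 35.5, 38.5 and 36.0 CPM in vehicle and 37.1, 42.7, 44.2 and 44.6 CPM after sorbitol, a log2 fold change of 0.20 (SE 0.08, edgeR adjusted p = 0.0562). Sorbitol 1 lay within the vehicle range and the other 3 above it. Without sorbitol 1 the peak was called higher (0.25, adjusted p = 0.0226), as it was with library totals (0.29, adjusted p = 0.00397).

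AMOTL2 had the strongest start peak of the 9, at 50.1 ± 1.25 CPM in vehicle and 45.8 ± 2.92 CPM after sorbitol. All sorbitol libraries (41.5 to 47.8 CPM) were below all vehicle libraries (49.0 to 51.9 CPM), yet the change was not called (-0.13, SE 0.08, edgeR adjusted p = 0.242). The FJX1 start was called lower, from 49.4, 48.9, 45.0 and 45.5 CPM to 34.6, 43.7, 39.2 and 44.7 CPM (-0.22, SE 0.08, edgeR adjusted p = 0.0449). Its groups did not overlap, but sorbitol 4 and vehicle 3 differed by little. The call was lost under 13 of 20 alternatives, among them leaving out vehicle 1, 2 or 3 (adjusted p = 0.128, 0.111 and 0.0519), sorbitol 1 or 3 (0.182 and 0.0975), and gene-end factors (-0.04, adjusted p = 0.691).

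The IGFBP3 start held 7.28, 8.01, 7.84 and 9.03 CPM in vehicle and 6.00, 8.63, 7.78 and 6.94 CPM after sorbitol, and was not called (-0.13, SE 0.14, edgeR adjusted p = 0.524). The outer AXL start was the weakest of the 9 and fell. It measured 2.79, 2.29, 1.81 and 2.12 CPM in vehicle and 1.08, 1.55, 1.51 and 0.825 CPM after sorbitol, with no overlap (-0.86, SE 0.28, edgeR adjusted p = 0.0157). Without vehicle 1 (-0.74, adjusted p = 0.0669) or sorbitol 4 (-0.70, adjusted p = 0.0683) it was no longer called, nor with gene-end factors (-0.68, adjusted p = 0.0580).

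**Figure D2:**
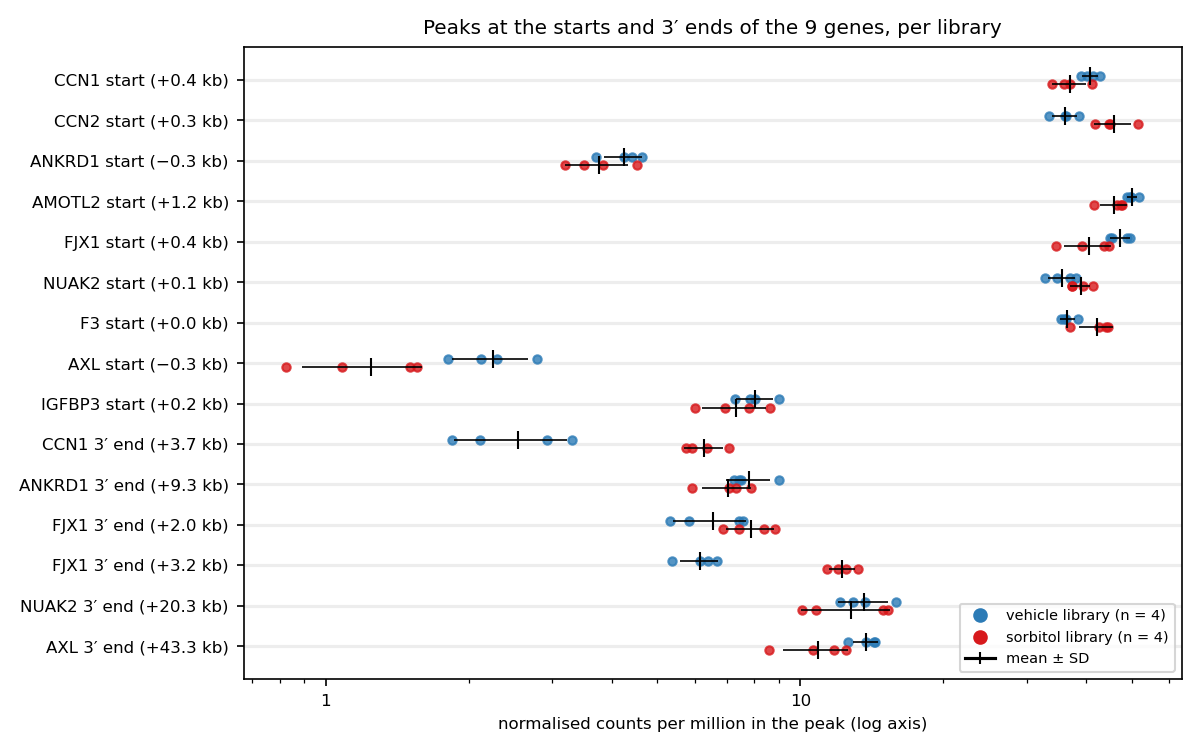
Normalised CPM of the 15 gene-end peaks in each library, on a log axis; points are single libraries, coloured by group, and black marks give the mean and SD. The CCN2 start, the CCN1 3′-end peak and the FJX1 3′-end peak centred 3.21 kb past the start have all 4 sorbitol points above the vehicle points.

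At 3′ ends, 2 of 6 peaks rose and 1 fell. Of 2034 peaks at protein-coding 3′ ends only, 7.33% rose and 31.1% fell, with a median of -0.22. That class leaves out peaks also within 1 kb of a protein-coding gene start, a filter not applied to the 6. Both peaks that rose lay just past the gene, at CCN1 and at FJX1. At CCN1, the peak at chr1:85584288-85584618 starts 0.338 kb beyond the annotated gene (85580761 to 85583950). It measured 2.92, 2.11, 3.30 and 1.85 CPM in vehicle and 7.08, 5.75, 6.36 and 5.91 CPM after sorbitol. The lowest sorbitol library was above the highest vehicle library. The rise was 2.43-fold, a log2 fold change of 1.28 (SE 0.18, edgeR adjusted p = 3.89e-07), and at least 2-fold rises made up 2.06% of the 3′-end peaks. The CCN1 start, 40.9 CPM in vehicle, was not called, so the 2 ends of this gene were called differently, although the difference between them was not tested.

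FJX1 spans chr11:35618460-35620865 and has 3 gene-end peaks. The one at chr11:35621345-35621992 starts 0.480 kb past the 3′ end. It measured 5.37, 6.69, 6.40 and 6.16 CPM in vehicle and 12.0, 13.2, 11.4 and 12.5 CPM after sorbitol. The groups were far apart (0.99, SE 0.13, edgeR adjusted p = 3.17e-08). The peak between it and the start, at 35620251 to 35620591, held 6.53 ± 1.15 CPM in vehicle and 7.88 ± 0.907 CPM after sorbitol and was not called (0.26, SE 0.14, edgeR adjusted p = 0.170).

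The other 3′-end peaks changed less. ANKRD1 held 7.48, 7.41, 9.03 and 7.25 CPM in vehicle and 7.08, 7.31, 7.87 and 5.91 CPM after sorbitol (-0.16, SE 0.14, edgeR adjusted p = 0.434). NUAK2 held 13.6 ± 1.64 and 12.8 ± 2.72 CPM (-0.09, SE 0.12, edgeR adjusted p = 0.633). The AXL 3′-end peak fell from 13.7 ± 0.825 to 10.9 ± 1.71 CPM (-0.34, SE 0.12, edgeR adjusted p = 0.0224). It also lies within 1 kb of an end of HNRNPUL1, and its call was lost without vehicle 2 (adjusted p = 0.0592), vehicle 3 (0.0632) or sorbitol 4 (0.117), and under 10 of 20 alternatives in all.

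Of the 57 distal peaks, 7 rose and 4 fell, with a median log2 fold change of 0.04. Among 77203 distal peaks within 50 kb of any protein-coding gene, 17.4% rose and 9.77% fell, with the same median of 0.04. At these loci 12.3% rose and 7.02% fell, so the distal peaks as a group stood no higher than others of their kind. At least 2-fold rises numbered 4 of 57, against 6.23% of the comparison peaks. Distal flanking peaks upstream of the gene start (3 higher and 2 lower of 24) and downstream of the 3′ end (3 higher and 1 lower of 26) had like counts. No peak was shown to be an enhancer of the gene it is listed under.

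Downstream of FJX1 a pair of distal peaks rose with the 3′-end peak. The one centred 11.7 kb past the start, chr11:35629860-35630518, measured 7.75, 5.30, 6.09 and 5.88 CPM in vehicle and 13.0, 13.4, 13.3 and 10.4 CPM after sorbitol (1.00, SE 0.13, edgeR adjusted p = 6.70e-08). The one centred 14.0 kb past it, chr11:35632282-35632660, measured 1.50, 1.20, 1.81 and 1.78 CPM in vehicle and 4.91, 4.04, 3.26 and 4.33 CPM after sorbitol (1.39, SE 0.22, edgeR adjusted p = 3.39e-06). In both, all 4 sorbitol libraries exceeded all vehicle libraries, and the second rose 2.62-fold. Between the 3′-end peak and this pair, a peak centred 5.40 kb past the start was not called (0.25, SE 0.16, edgeR adjusted p = 0.235), so the rise did not cover every peak of the stretch. At the far edge, the TRIM44 end, 44.3 kb past the FJX1 start, fell from 21.1 ± 0.394 to 16.5 ± 1.00 CPM (-0.35, SE 0.10, edgeR adjusted p = 0.00445), a call that gene-end factors ended (-0.18, adjusted p = 0.129).

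The largest rise at the 9 loci was upstream of AMOTL2. The peak at chr3:134423130-134423476, 47.9 kb before the outer start, measured 0.884, 1.27, 0.980 and 0.958 CPM in vehicle and 3.17, 2.10, 3.18 and 3.09 CPM after sorbitol. The groups did not overlap, and the rise was 2.80-fold (1.48, SE 0.27, edgeR adjusted p = 2.31e-05). It rests on 13 to 21 counts in each vehicle library and 27 to 45 in each sorbitol library. Inside the AMOTL2 body, a peak 11.0 kb past the start held 14.7, 13.6, 13.8 and 17.0 CPM in vehicle and 16.5, 16.9, 18.5 and 20.3 CPM after sorbitol. It was called higher (0.30, SE 0.11, edgeR adjusted p = 0.0277), with overlapping groups. That call was lost without vehicle 1, 2 or 3 (adjusted p = 0.0565, 0.0941 and 0.0895) and without sorbitol 3 or 4 (0.0682 and 0.138).

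At CCN1, a weak peak centred 27.0 kb upstream, chr1:85553650-85553897, held 0.680, 0.241, 0.619 and 1.92 CPM in vehicle and 1.50, 2.72, 1.59 and 1.99 CPM after sorbitol. Vehicle 4 lay within the sorbitol range, and the vehicle counts were only 10, 4, 12 and 28. The peak was called higher (1.21, SE 0.35, edgeR adjusted p = 0.00712) but not without vehicle 2 (0.90, adjusted p = 0.0526) or sorbitol 2 (1.01, adjusted p = 0.0539). Without vehicle 4 the log2 fold change was 1.92 (adjusted p = 4.15e-05). The strongest CCN1 flanking peak, centred 3.80 kb upstream at an end of LOC124904208, held 35.1 ± 2.78 CPM in vehicle and 37.6 ± 4.38 CPM after sorbitol and was not called (0.10, SE 0.09, edgeR adjusted p = 0.413).

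NUAK2 had the most calls in the higher direction together with FJX1, all outside its own ends and all under 2-fold. The clearest, chr1:205343957-205344785, centred 22.6 kb upstream, held 14.1, 13.2, 11.1 and 11.6 CPM in vehicle and 16.2, 19.4, 15.5 and 17.7 CPM after sorbitol. The groups did not overlap (0.46, SE 0.11, edgeR adjusted p = 0.000954), and of the alternatives run only the contig factors ended the call (0.42, adjusted p = 0.272). A peak 27.1 kb past the start held 4.17 ± 1.04 CPM in vehicle and 6.00 ± 0.718 CPM after sorbitol (0.53, SE 0.17, edgeR adjusted p = 0.0145). Its call was lost without vehicle 3 (0.45, adjusted p = 0.0656) or sorbitol 4 (0.43, adjusted p = 0.0768). A peak at the pseudogene SNRPGP10, 30.8 kb upstream, held 2.56 ± 0.281 and 3.73 ± 0.405 CPM (0.54, SE 0.20, edgeR adjusted p = 0.0358). Leaving out vehicle 1, 2 or 3 (adjusted p = 0.0770, 0.0513 and 0.101) or sorbitol 2 or 3 (0.105 and 0.0795) ended that call.

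The 1 call at F3 outside its start was a peak 11.6 kb upstream at an end of LOC124904223. It held 3.47, 2.65, 4.80 and 3.49 CPM in vehicle and 5.50, 4.04, 6.11 and 5.09 CPM after sorbitol, with overlap (0.51, SE 0.18, edgeR adjusted p = 0.0298). The call was lost without vehicle 1 or 2 (adjusted p = 0.0642 and 0.141) and without sorbitol 1, 3 or 4 (0.0765, 0.122 and 0.0529). At ANKRD1 no distal peak was called. The single call there was at the RPP30 end, 49.0 kb past the ANKRD1 start, which fell from 38.6, 40.1, 40.2 and 42.6 CPM to 30.3, 27.1, 29.3 and 34.6 CPM (-0.41, SE 0.09, edgeR adjusted p = 0.000239). Of the alternatives run, only the contig factors ended this call (-0.45, SE 0.23, adjusted p = 0.215), through a larger SE. Gene-end factors gave -0.24 (adjusted p = 0.0163).

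IGFBP3 had 2 distal calls, both lower and both near the threshold. The peak 31.6 kb upstream fell from 1.82 ± 0.359 to 1.03 ± 0.391 CPM (-0.81, SE 0.31, edgeR adjusted p = 0.0400). Leaving out vehicle 2 or 3 (adjusted p = 0.151 and 0.0514) or sorbitol 1 or 2 (0.0610 and 0.180) ended the call. The peak 49.0 kb past the start fell from 3.93 ± 0.757 to 2.71 ± 0.445 CPM (-0.52, SE 0.20, edgeR adjusted p = 0.0484). Leaving out vehicle 1, 2 or 4 (adjusted p = 0.182, 0.0652 and 0.0862) or sorbitol 1, 2 or 3 (0.0658, 0.161 and 0.0731) ended it. The replicate block also ended both calls (adjusted p = 0.0628 and 0.0544).

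**Figure D3:**
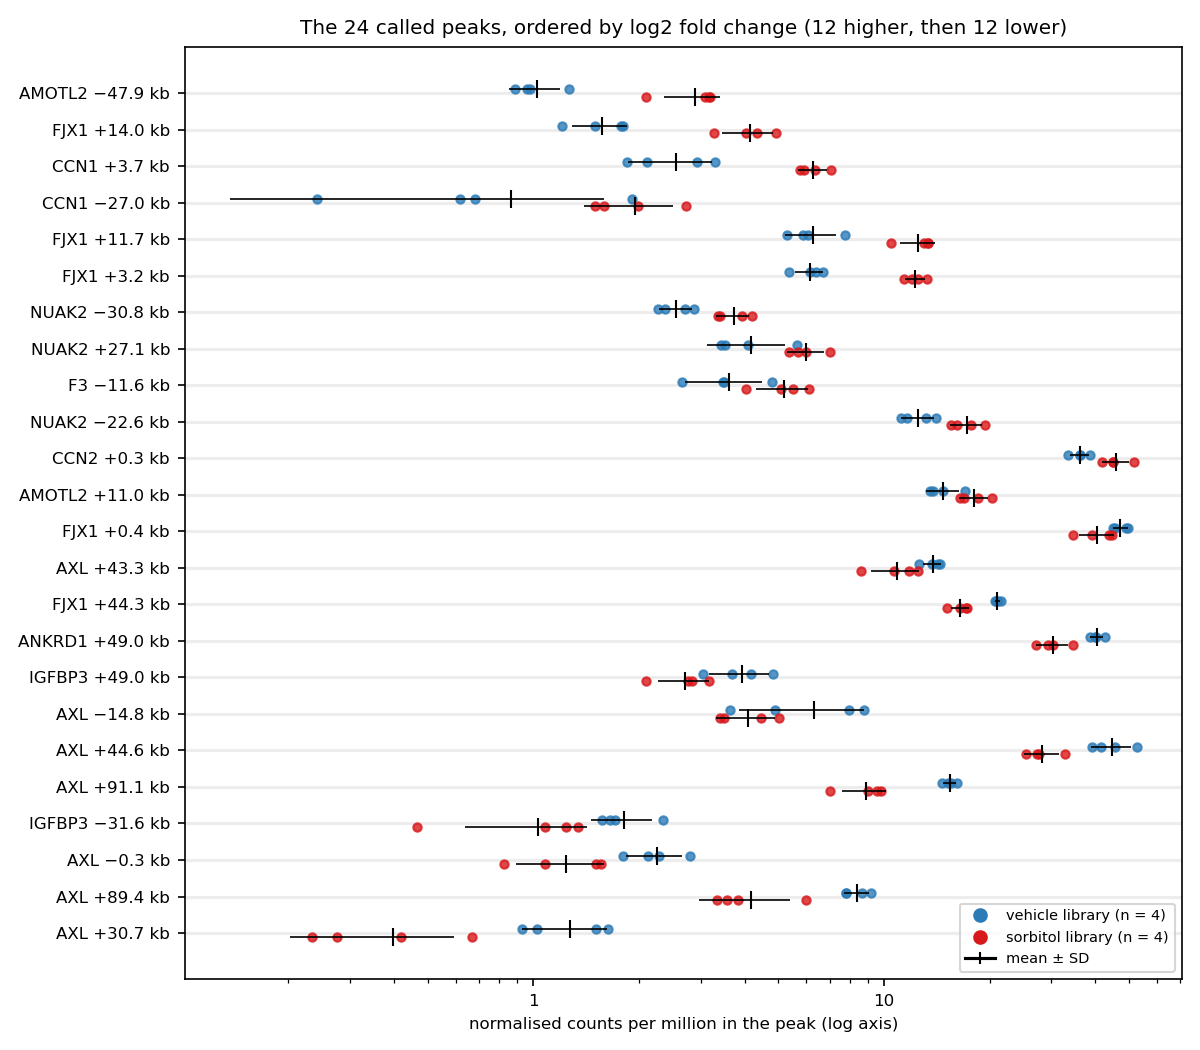
Normalised CPM in each library, on a log axis, for the 24 called peaks of the 9 loci, named by the distance of their centre from the gene start; points are single libraries, coloured by group, and black marks give the mean and SD. The sorbitol points lie wholly above the vehicle points at 8 of the 12 peaks that rose and wholly below them at 10 of the 12 that fell.

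At AXL all 11 log2 fold changes were below 0, with a median of -0.66. ANKRD1, with 5 of 6 below 0, and IGFBP3, with 5 of 7, had medians of -0.19 and -0.14. The locus lies on chromosome 19, where 49.0% of 3318 tested peaks fell and 3.41% rose, with a median of -0.45. Whether AXL differs from the rest of its chromosome was not tested. The strongest peak, at an end of the neighbouring RNA-binding protein gene HNRNPUL1 (chr19:41263258-41264420), held 52.5, 45.7, 41.6 and 39.2 CPM in vehicle and 27.7, 27.3, 25.4 and 32.8 CPM after sorbitol. The groups did not overlap (-0.66, SE 0.09, edgeR adjusted p = 1.88e-07). A second HNRNPUL1 end peak, at 41308412 to 41308930, fell from 8.36 ± 0.687 to 4.18 ± 1.22 CPM (-0.99, SE 0.16, edgeR adjusted p = 3.70e-06). The peak at LOC105372401, at 41309760 to 41310879, fell from 15.4 ± 0.665 to 8.85 ± 1.26 CPM (-0.79, SE 0.12, edgeR adjusted p = 7.57e-07). These 3 are ends of other genes within the 50 kb flank.

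Within the AXL body, the peak at chr19:41249787-41249987, 30.7 kb past the start, had the largest fall of the 86. It measured 1.63, 1.51, 0.929 and 1.03 CPM in vehicle and 0.666, 0.233, 0.418 and 0.275 CPM after sorbitol, without overlap (-1.67, SE 0.40, edgeR adjusted p = 0.00116). It also has the lowest mean count of the 86, 12.8 per library, so the size of the fall is imprecise. At the inner AXL start, the peak over the window with the TEAD match (41226149 to 41226881) held 5.26 ± 1.23 CPM in vehicle and 4.57 ± 0.448 CPM after sorbitol and was not called (-0.19, SE 0.17, edgeR adjusted p = 0.456). The peak 14.8 kb upstream held 8.77, 7.95, 4.90 and 3.63 CPM in vehicle and 3.42, 3.50, 5.02 and 4.47 CPM after sorbitol. It was called lower (-0.62, SE 0.19, edgeR adjusted p = 0.0121), but the groups overlapped and the call was lost without vehicle 1 (-0.43, adjusted p = 0.122), vehicle 2 (-0.48, adjusted p = 0.0869) or sorbitol 2 (-0.55, adjusted p = 0.0523).

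To compare peaks of like strength, each of the 86 was set against tested peaks of like mean CPM, in 20 bins of strength. Of the 86, 10 (11.6%) lay above the 90th percentile of log2 fold change of their bin and 12 (14.0%) below the 10th, where 10% in each is given by construction. FJX1 had 3 of those above and AXL 7 of those below. The 9 loci had stronger peaks than the table as a whole, with a median of 4.96 CPM against 3.02 CPM.

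**Figure D4:**
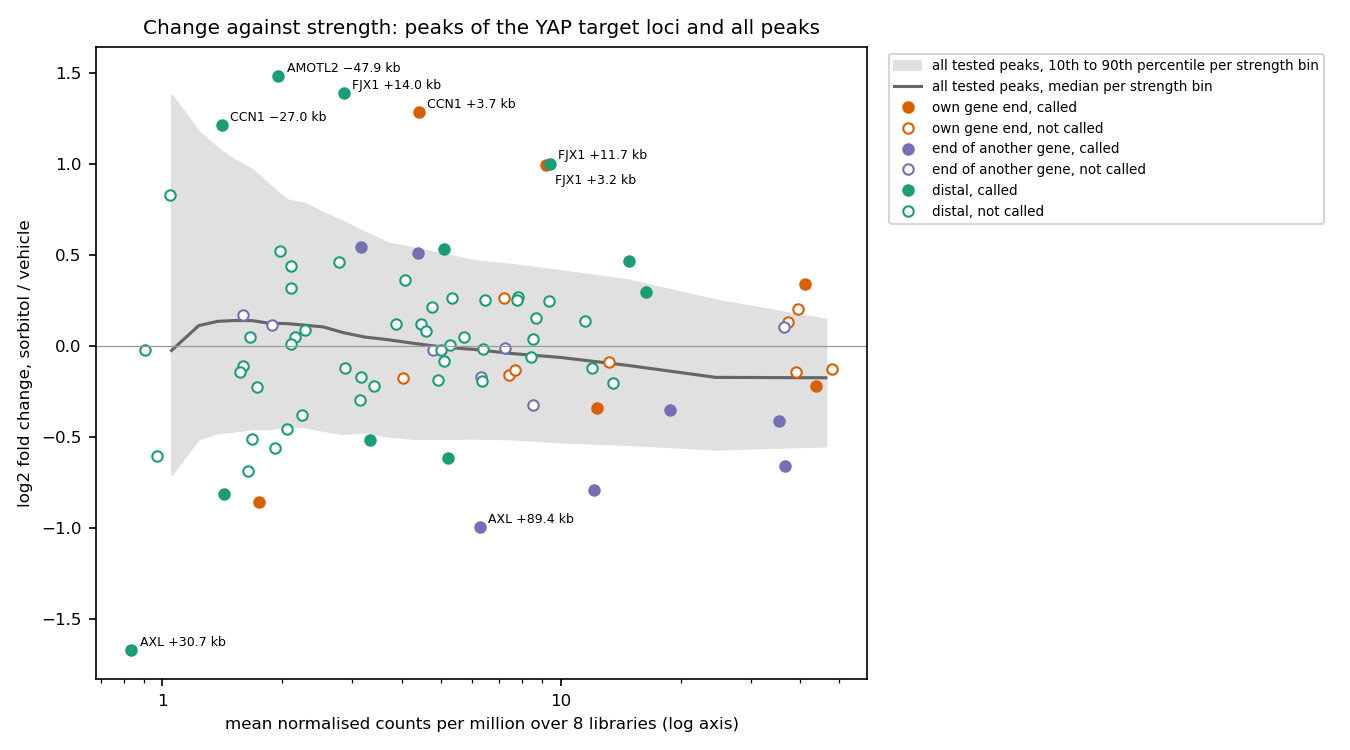
Log2 fold change, sorbitol over vehicle, of the 86 peaks against their mean normalised CPM on a log axis; points are peaks, filled where called, the line is the median of all tested peaks in 20 bins of strength and the grey band their 10th to 90th percentiles. Of the 86, 10 lie above the 90th percentile and 12 below the 10th, 7 of these at AXL.

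A further 13 YAP target genes, from a published signature recalled from general knowledge, were read in the same fit. Of their 15 gene-end peaks, 1 rose, at NT5E (0.27, edgeR adjusted p = 0.0267), and 5 fell, at MYOF, FOXF2, DOCK5, ARHGEF17 and TGFB2, with a median of -0.18. Peaks within 1 kb of an end of any gene rose in 8.75% and fell in 32.8% of 25201 cases. Away from their ends, in the body and 50 kb flanks, 70 of 258 peaks rose and 11 fell (27.1% and 4.26%), with a median of 0.20. Of all tested peaks 16.0% rose and 13.1% fell, and of distal peaks within 50 kb of any protein-coding gene 17.4% rose and 9.77% fell. These 258 include peaks at the ends of other genes, so neither class is wholly like them. The list was not tested against other peaks.

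Genes of the Hippo pathway itself were read in the same way. Of 18 listed genes, 16 had a gene-end peak, with 23 peaks in all, of which 1 rose and 10 fell (4.35% and 43.5%), with a median of -0.29. Peaks within 1 kb of an end of any gene rose in 8.75% and fell in 32.8% of cases. Those at protein-coding gene starts rose in 6.31% and fell in 42.9%. The 23 peaks lie at either end of their genes and were not tested against these classes. YAP1 was not called (0.04, edgeR adjusted p = 0.744). Among the TEAD factors, a TEAD2 peak fell by 0.29, and the other TEAD2 peaks (-0.40, -0.56 and -0.09) were not called. TEAD2 lies on chromosome 19, where 49.0% of tested peaks fell. TEAD1 was not called (0.22). TEAD4 had peaks that fell by 0.34 and 0.75, and TEAD3 had 1 peak that fell by 0.74 and 1 that rose by 0.36. All these values are on the log2 scale. The kinase genes LATS1 (-0.34), STK4 (-0.40) and TAOK1 (-0.61), their scaffold SAV1 (-0.25), and the upstream regulators NF2 (-0.51) and AMOT (-0.25) also had a peak that fell. Outside the ends, 31 of 274 peaks rose and 31 fell (11.3% each), where 16.0% and 13.1% of all tested peaks did so. Of distal peaks within 50 kb of any protein-coding gene, 17.4% rose and 9.77% fell. The 274 were not limited to distal peaks.

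The gene ends whose pattern over the 8 libraries was most like the CCN1 3′ end were LOC100420442, LOC105375916 and LOC107987182, at root mean square distances of 0.152, 0.167 and 0.179 in centred log2 CPM. Nearest to the CCN2 start were SCN3B (0.0403), ST8SIA4 (0.0410) and LOC124904048 (0.0439). SCN3B, a sodium channel subunit gene, held 38.5 CPM in vehicle and 49.4 CPM after sorbitol, close to the CCN2 levels.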

How the data were processed

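Per the labels' protocols, Omni-ATAC-seq used 50000 cells per sample and paired-end reads of 75 bp. The deposited table holds the authors' raw counts at 129536 peaks in 4 vehicle and 4 sorbitol libraries. Whether reads or fragments were counted is not given in the sources used here. The submitters' processing notes name hg38, BWA 0.7.17, MACS2 2.2.9.1 and DESeq2 without roles.

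Starts in the table were taken as zero-based, because the smallest and most frequent stop minus start was 200, so 1 was added to print them. Genes came from a RefSeq table (GRCh38.p14), and strand from the RefSeq promoter table, except for CCN1, whose plus strand is general knowledge. In R 4.3.3, edgeR 4.0.16 was run on the deposited counts of all peaks, with treatment as the only term. The filterByExpr step (minimum count 10, minimum total 15) removed 49 peaks. TMM factors were 0.954 to 0.991 in vehicle and 1.01 to 1.04 after sorbitol, so the scaling itself differed by treatment. Benjamini-Hochberg adjustment was over 129487 peaks. Normalised CPM are edgeR's CPM over the TMM-scaled totals. Totals ran from 11522266 to 19831471 counts. The procedure was run on simulated counts in which few peaks changed, balanced in direction. That run therefore cannot test the choice of scaling.

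Named were all gene-end peaks, the peak of smallest p and the strongest peak outside the ends at each locus, and calls of at least 2-fold. The other called peaks were described after their values were seen. The nearest patterns used log2(CPM + 0.5). The genes, lists and rules were chosen with earlier results of these data known. Alternatives were other scalings, DESeq2 1.42.0, filters, windows, thresholds, a replicate block and leaving out libraries. One listed marker gene is not reported here. No genome was used, so flanking peaks were not searched for motifs or corrected for GC content.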

Additional observations from a re-analysis of the deposited data

Results flagged for a closer look

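Within groups of 4 libraries, 3 of 76 tested peak and group combinations had 1 library set far apart from the other 3, where chance gives about 1 in 20, or 3.8. At the ANKRD1 3′ end, vehicle 3 held 9.03 CPM, and vehicle 1, 2 and 4 held 7.25 to 7.48. At the AMOTL2 peak 47.9 kb upstream, sorbitol 2 held 2.10 CPM against 3.09 to 3.18 in the other sorbitol libraries. At the FJX1 peak 11.7 kb past the start, sorbitol 4 held 10.4 CPM against 13.0 to 13.4. The AMOTL2 and FJX1 peaks were called higher with and without these libraries, and the ANKRD1 peak was called in neither case.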

How the results depend on the processing

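Of the 24 called peaks at the 9 loci, 9 kept direction and call under all 19 or 20 alternatives run, and 15 lost the call under at least 1. Peaks with 19 alternatives had a mean count under 50 and were not tested in the run that required at least 50. No called peak changed sign. For all peaks, the 9 loci and their gene-end peaks, the main counts of calls were 37717, 24 and 6. They became 23272, 14 and 3 at an adjusted threshold of 0.01, and 13897, 11 and 3 with factors from unplaced and unlocalized contigs, an alternative added after seeing the data. A mean count of at least 50 left 21406 calls among all peaks. Flanks of 10 kb gave 11 calls and flanks of 100 kb gave 37, because fewer or more peaks were included. Leaving out 1 library gave 30555 to 38658, 15 to 24 and 4 to 6 calls, the 15 without vehicle 2. The replicate block gave 34444, 21 and 5. The numbers do not pair the libraries: deviations of same-numbered libraries correlated at 0.00136, 0.00770, -0.0373 and -0.158, and 1 of 8 libraries matched best with its own number. Without vehicle 4 and sorbitol 4, also added after seeing the data, there were 20 calls at the 9 loci, 11 higher and 9 lower. Depth limits the weak distal peaks most, since the lowest mean was 12.8 counts per library.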
